A study of Homo sapiens with 6 samples.

Results

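A set of 36 genes of the DNA damage response, made up of homologous recombination, Fanconi anemia and checkpoint genes, was examined in MDA-MB-231 cells. The members were chosen by name, with earlier results of these data known, and their symbols were mapped to the Ensembl identifiers of the count tables. All 36 were found among 61552 identifiers and passed the filter that left 17084 genes for testing. MDA-MB-231 is an established human breast cancer cell line without estrogen and progesterone receptor or HER2 amplification. The cells received 10 μM VNLG-152R, a compound described by the study as a degrader of the kinases MNK1 and MNK2, or the DMSO vehicle, both for 24 h, and 3 polyA RNA libraries were sequenced per group. The question put to the list was whether the damage response genes responded to the compound, and whether members with short and with long transcripts behaved alike. All values come from a single line, 1 dose and 1 time, and the labels do not say whether the 3 samples of a group were separate cultures, so each p-value reflects only how far these samples differed from each other, and that spread may be technical.

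Homologous recombination repairs a broken chromosome by copying an intact sister. The MRE11 complex and its partners trim the broken end, BRCA1, PALB2 and BRCA2 prepare the trimmed end for strand invasion, and the matching sequence on the sister is then found and copied. The Fanconi pathway opens crosslinks between the strands at stalled replication forks and hands the resulting break to recombination. The kinases ATM, ATR and DNA-PKcs (encoded by PRKDC) sense damaged or stalled DNA, and CHEK1 and CHEK2 pass the signal on to the cell cycle. Many of these genes are transcribed most strongly in S phase, and defects in BRCA1 and BRCA2 are a known cause of breast cancer.

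Most of the 36 genes differed little between the groups. With edgeR's quasi-likelihood test, adjusted over all 17084 genes by the Benjamini-Hochberg method at a threshold of 0.05, ATM and PRKDC rose and ATRIP fell. The 2 that rose are 5.56% of the list, where 3.9% of all tested genes rose, and the 1 that fell is 2.78%, where 1.49% of all tested genes fell. Log2 fold changes of VNLG-152R over vehicle control were negative for 25 members and positive for 11, with a median of -0.0581, against -0.00235 over all tested genes. For 33 of the 36, the 95% interval of the log2 fold change stayed within 0.585 of zero, which is a 1.5-fold change in either direction, and the exceptions were ATM, PRKDC and ATRIP. At an unadjusted p under 0.05, 4 members were higher and 9 lower, where 12.7% of all tested genes were higher and 9.78% lower. The 9 are 25% of the list. The 3 VNLG-152R libraries lay wholly above the 3 vehicle controls for 6 members (16.7%), where 15.1% of all tested genes did so, and wholly below them for 9 (25%), where 13.4% did so.

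**Figure D1:**
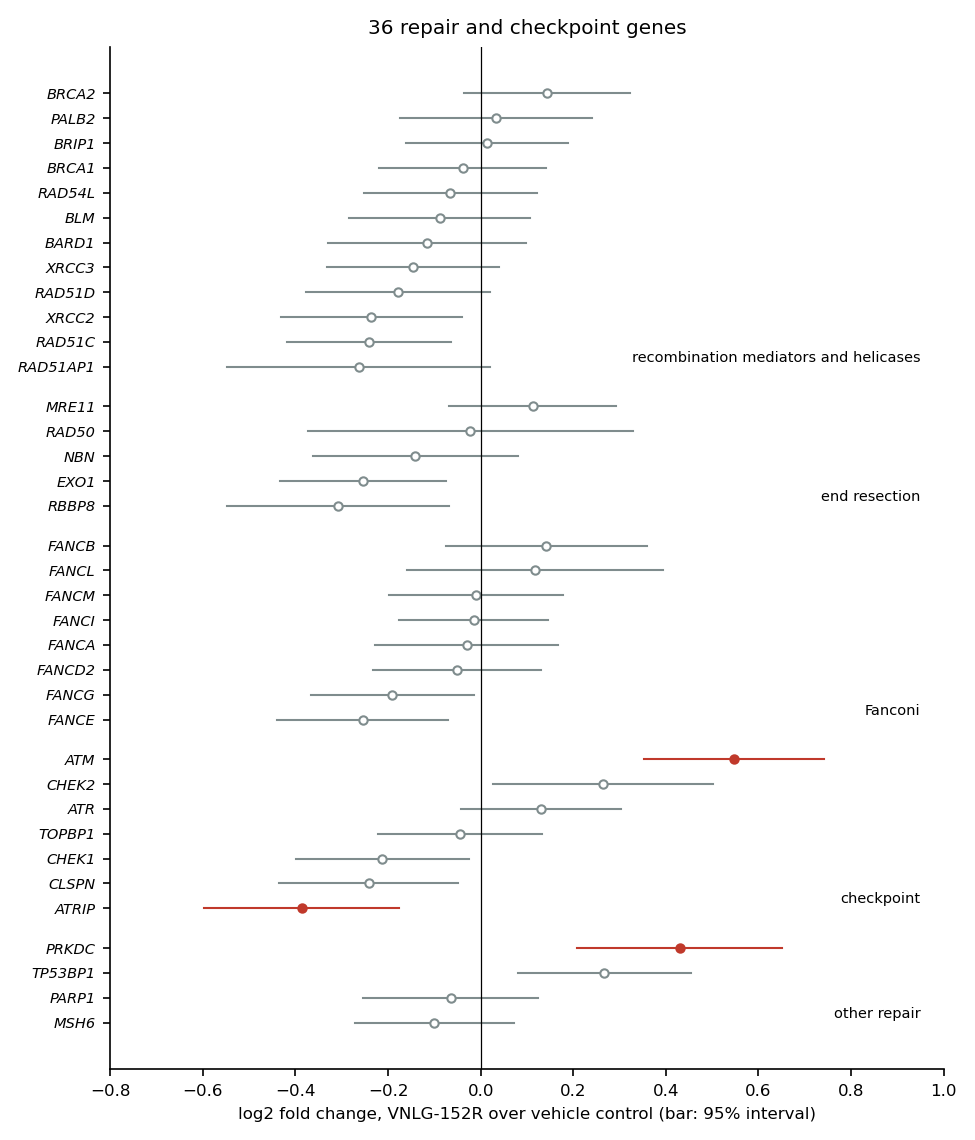
Log2 fold change (x axis, VNLG-152R over vehicle control) of the 36 genes, grouped by role, with 95% confidence intervals from the edgeR fit and the members past an adjusted p of 0.05 in color. ATM and PRKDC lie to the right of zero at 0.55 and 0.43, ATRIP lies to the left at -0.39, and the other intervals stay within 0.585 of zero.

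The libraries held 69923839 to 82151816 counts in genes with VNLG-152R and 60122936 to 68583224 in vehicle control. Levels are given as CPM, the count scaled to a common library size after TMM normalization. The line was checked against its markers: VIM, CD44, CAV1 and AXL, mesenchymal genes typical of MDA-MB-231, were abundant, with VIM at 3397 to 4323 CPM with VNLG-152R and 4911 to 5166 CPM in vehicle control. The estrogen receptor ESR1 and the leukocyte genes PTPRC and CD3E were too low to be tested, and CDH1, the epithelial cadherin, was at 0.366 to 0.532 CPM with VNLG-152R and 0.427 to 0.698 CPM in vehicle control. Of the other genes that were to be low or absent, ERBB2, which encodes HER2, was at 84.3 to 118 CPM with VNLG-152R and 86.7 to 92.1 CPM in vehicle control, and so was neither low nor absent. The luminal factor GATA3 was at 4.04 to 5.16 CPM with VNLG-152R and 5.04 to 5.66 CPM in vehicle control. FOXA1 was at 1.41 to 1.51 CPM with VNLG-152R and 1.30 to 1.66 CPM in vehicle control, and the progesterone receptor PGR at 0.523 to 0.580 CPM with VNLG-152R and 0.352 to 0.382 CPM in vehicle control. The endothelial gene PECAM1 was at 22.8 to 26.5 CPM with VNLG-152R and 21.3 to 24.5 CPM in vehicle control, and the fibroblast gene COL1A1 at 15.1 to 18.4 CPM with VNLG-152R and 16.9 to 17.8 CPM in vehicle control, so these markers were present at like levels in both groups. Read pairs in no annotated gene made up 3.36% to 5.05% with VNLG-152R and 2.63% to 3.17% in vehicle control.

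ATM rose with VNLG-152R. It encodes the kinase recruited to chromosome breaks by the MRE11 complex, and lies at chr11:108222484-108369102 on the plus strand of GRCh38 (ENSG00000149311). It had 85.0, 101 and 84.5 CPM in the 3 VNLG-152R libraries, against 60.4, 64.4 and 60.2 CPM in the vehicle controls. Every VNLG-152R library was above every control, and the means were 90.1 ± 9.26 CPM with VNLG-152R and 61.7 ± 2.41 CPM in vehicle control (SD, n = 3 each). The log2 fold change was 0.55 with a standard error of 0.0903, a 1.46-fold rise (edgeR adjusted p = 0.00389), and the call was kept when any of the 6 libraries was left out. With a correction for transcript length fitted across all genes, it was 0.33 (edgeR adjusted p = 0.0524), which is past the threshold no longer.

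ATRIP, the partner that brings ATR to single-stranded DNA, fell. It lies at chr3:48446710-48467645 on the plus strand (ENSG00000164053) and had 13.5, 11.7 and 14.0 CPM with VNLG-152R, against 17.2, 16.5 and 17.6 CPM in vehicle control. The groups did not overlap, and the log2 fold change was -0.39 with a standard error of 0.0974, or 0.765 times the control level (edgeR adjusted p = 0.0372). The call was lost in 5 of the 6 fits that left out 1 library: without vehicle control 1, 2 or 3 the adjusted p was 0.0849, 0.0669 and 0.161, and without VNLG-152R 2 or 3 it was 0.105 and 0.0628. Of the ATRIP exons, 27.9% also lie in the exonuclease gene TREX1 on the same strand, which had 0 counts in all 6 libraries. No read of the shared stretch was thus assigned to TREX1. Whether such reads were counted for ATRIP is not known, so the ATRIP count is uncertain.

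ATR itself, the kinase of stalled forks, differed by a log2 fold change of 0.13, with 45.0, 44.5 and 44.6 CPM with VNLG-152R against 39.9, 42.8 and 39.7 CPM in vehicle control (edgeR adjusted p = 0.357). The VNLG-152R libraries were nearly equal to each other and all above the controls, although the difference did not pass the test. CHEK1, the effector kinase of ATR, lay on the other side, with 51.6, 53.1 and 56.6 CPM with VNLG-152R against 67.8, 60.3 and 58.9 CPM in vehicle control (log2 fold change -0.21, edgeR adjusted p = 0.166). CHEK2, the effector kinase of ATM, had 12.9, 16.0 and 12.7 CPM with VNLG-152R against 11.8, 10.8 and 12.02 CPM in vehicle control (0.26, adjusted p = 0.175 by the same test), and its log2 fold change was 0.15 without VNLG-152R replicate 2. Thus ATM and CHEK2 both had positive values and ATRIP and CHEK1 both had negative ones, with the correction for transcript length and without it. ATR did not share the sign of its partner and its effector, but its value was close to zero with the correction. CLSPN, which holds CHEK1 for activation by ATR, averaged 131.8 ± 5.12 CPM with VNLG-152R and 155.9 ± 15.7 CPM in vehicle control (SD, n = 3 each), without overlap but short of the threshold (log2 fold change -0.24, edgeR adjusted p = 0.133). TOPBP1, the activator of ATR, was at -0.05. Of these 7 checkpoint members, 3 had groups that did not overlap upwards (ATM, ATR and CHEK2), where 15.1% of all tested genes did so. Another 3 did so downwards (ATRIP, CHEK1 and CLSPN), where 13.4% of all tested genes did so. Only ATM and ATRIP of the 7 passed the test.

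**Figure D2:**
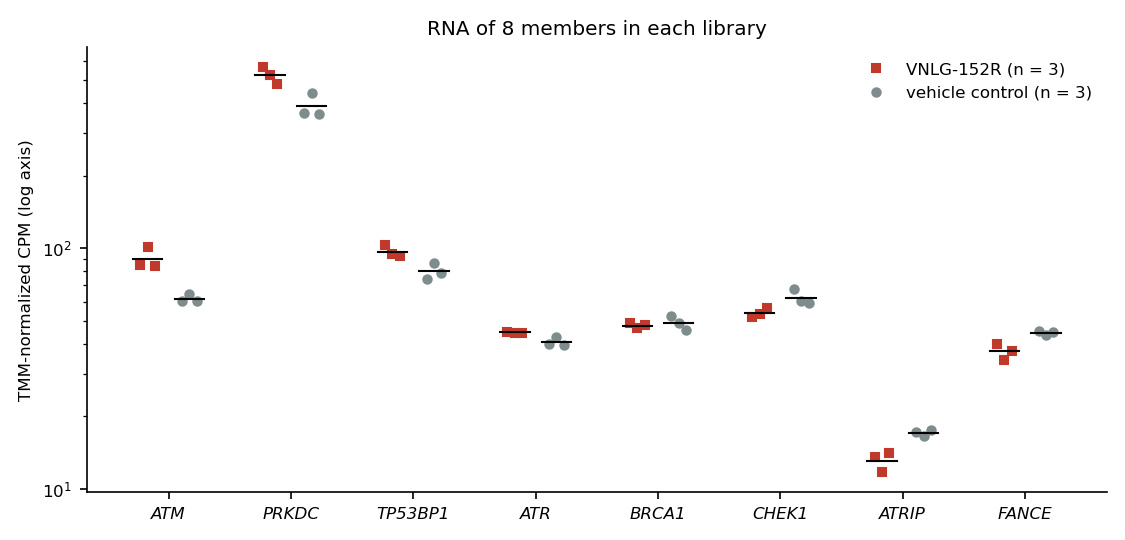
TMM-normalized CPM (y axis, log scale) of 8 members (x axis) in each of the 6 libraries, with VNLG-152R (squares) left of vehicle control (circles) and a line at each group mean. The squares of ATM and PRKDC lie above all circles, those of ATRIP at 11.7 to 14.0 lie below the circles at 16.5 to 17.6, and those of BRCA1 overlap with the circles.

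Promoter windows of 300 bases (250 before to 50 after the annotated start, RefSeq on GRCh38.p14) were found for 33 of the 36 members. None was found for FANCI, NBN and PRKDC, so PRKDC, which rose, is in neither class below. The E2F-type word TTCCCGC, searched on both strands, was present in 16 of the 33 (48.5%), where 7.8% of 27305 genes held it, and CCAAT, also on both strands, in 17 (51.5%), where 39.7% did. E2F factors drive many genes of the start of S phase. Members with the E2F-type word had a median log2 fold change of -0.108, with 2 positive and 14 negative values, and the 17 without it -0.01, with 8 positive and 9 negative. The median transcript length was 4363.5 bases with the word and 5451 without it, and ATM, ATRIP, CHEK1 and RAD51C were in the class without the word. A match describes letters only. The windows below belong to the gene that rose most, the gene that fell, and CLSPN, an S phase checkpoint gene that holds both words. The words are in capitals, and in all 3 windows they stand as their reverse complements. They are chr11:108222817-108223116 on the plus strand for ATM, chr3:48446487-48446786 on the plus strand for ATRIP and chr1:35769929-35770228 on the minus strand for CLSPN.
ATM: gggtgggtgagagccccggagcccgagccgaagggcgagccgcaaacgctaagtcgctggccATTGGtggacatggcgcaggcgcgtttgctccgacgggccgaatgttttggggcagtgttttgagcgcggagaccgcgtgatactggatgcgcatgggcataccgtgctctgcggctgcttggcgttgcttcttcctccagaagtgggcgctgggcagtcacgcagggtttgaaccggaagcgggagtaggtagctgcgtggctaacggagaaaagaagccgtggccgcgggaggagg
ATRIP: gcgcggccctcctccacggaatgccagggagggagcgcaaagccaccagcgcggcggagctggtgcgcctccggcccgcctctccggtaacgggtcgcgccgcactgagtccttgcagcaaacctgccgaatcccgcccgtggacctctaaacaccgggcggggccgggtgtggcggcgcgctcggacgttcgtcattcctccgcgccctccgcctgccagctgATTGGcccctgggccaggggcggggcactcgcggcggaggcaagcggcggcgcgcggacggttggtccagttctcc
CLSPN: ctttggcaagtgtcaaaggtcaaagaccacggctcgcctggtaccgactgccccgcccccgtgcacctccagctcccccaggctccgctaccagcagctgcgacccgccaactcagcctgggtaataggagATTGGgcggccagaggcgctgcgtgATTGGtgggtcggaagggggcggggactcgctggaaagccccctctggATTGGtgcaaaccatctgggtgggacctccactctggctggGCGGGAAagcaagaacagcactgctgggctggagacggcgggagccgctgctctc

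The other repair members held the second gene that rose. PRKDC, the catalytic subunit of the end-joining kinase, lies at chr8:47773108-47960183 on the minus strand (ENSG00000253729). It had 565, 525 and 481 CPM with VNLG-152R, against 366, 439.5 and 361 CPM in vehicle control. The groups did not overlap, with a log2 fold change of 0.43 and a standard error of 0.102, a 1.35-fold rise (edgeR adjusted p = 0.0298). The adjusted p was 0.0966 and 0.161 without vehicle control 1 or 3 and 0.051 and 0.0538 without VNLG-152R 2 or 3, and 0.192 (log2 fold change 0.21) with the correction for transcript length.

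TP53BP1, which limits resection and steers breaks to end joining, had 103, 94.3 and 92.6 CPM with VNLG-152R against 74.6, 87.0 and 79.0 CPM in vehicle control. All VNLG-152R libraries were above the controls, and the difference did not pass the test (log2 fold change 0.27, standard error 0.0865, edgeR adjusted p = 0.0914). TUBGCP4 covers 28.73% of its exons from the opposite strand, and the strand setting of the counting is not given. PARP1, which marks single-strand breaks with poly(ADP-ribose), had 313, 271 and 296 CPM with VNLG-152R against 291, 316 and 314 CPM in vehicle control, and the groups overlapped (-0.06, with a 95% interval of -0.25 to 0.12). MSH6, which recognizes mismatches, was at -0.10.

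Of the 12 recombination mediators and helicases, none passed the test with edgeR, DESeq2 or limma-voom and 2 were lower at an unadjusted p under 0.05 (9.78% of all tested genes). The log2 fold changes were negative in 9 and positive in 3, and the median was -0.102. BRCA1, the ubiquitin ligase that with BARD1 promotes resection and recruits PALB2, had 48.8, 46.4 and 47.8 CPM with VNLG-152R, against 52.2, 49.0 and 45.8 CPM in vehicle control. The 2 groups overlapped, and the 95% interval of the log2 fold change ran from -0.22 to 0.14. BRCA2 had 27.6, 28.4 and 29.03 CPM with VNLG-152R, against 27.2, 24.6 and 25.1 CPM in vehicle control, so that its groups just failed to meet (0.14, edgeR adjusted p = 0.333). BARD1 was at -0.12 and PALB2, the bridge between BRCA1 and BRCA2, at 0.03.

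RAD51C, RAD51D, XRCC2 and XRCC3, related proteins that assist strand invasion, were all on the negative side without passing the test. RAD51C averaged 21.8 ± 0.66 CPM with VNLG-152R and 25.8 ± 0.557 CPM in vehicle control (SD, n = 3 each; log2 fold change -0.24, edgeR adjusted p = 0.103). XRCC2 was at -0.24, RAD51D at -0.18 and XRCC3 at -0.15, and in RAD51C, RAD51D and XRCC2 the VNLG-152R libraries were below every control. The exons of XRCC3 lie to 76.68% opposite KLC1 on the other strand. RAD51AP1, which stimulates strand invasion, was at -0.26, but its libraries were uneven, with 18.8, 25.8 and 25.7 CPM with VNLG-152R against 32.8, 24.7 and 26.9 CPM in vehicle control (edgeR adjusted p = 0.257). The low value came from VNLG-152R replicate 1 and the high one from vehicle control replicate 1, and the log2 fold change was -0.13 without the first of these libraries and -0.14 without the other. RAD54L, a motor protein of the strand invasion step, was at -0.07, and the helicases BRIP1 and BLM were at 0.01 and -0.09.

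The 5 end resection members had a median of -0.141. None passed the test with edgeR, DESeq2 or limma-voom, and 2 were lower at an unadjusted p under 0.05 (9.78% of all tested genes). RBBP8 (also called CtIP), which starts resection with the MRE11 complex, had 46.7, 49.7 and 59.8 CPM with VNLG-152R against 73.4, 58.6 and 61.5 CPM in vehicle control, and the groups overlapped (log2 fold change -0.31, edgeR adjusted p = 0.123). EXO1, the exonuclease that extends resection, averaged 42.5 ± 1.72 CPM with VNLG-152R and 50.7 ± 2.79 CPM in vehicle control (SD, n = 3 each), without overlap (-0.25, edgeR adjusted p = 0.0951). The complex of MRE11, RAD50 and NBN gave log2 fold changes of 0.11, -0.02 and -0.14 for its subunits, none past the threshold. RAD50 averaged 4.12 CPM with VNLG-152R and 4.17 CPM in vehicle control, the lowest level in the list, and its count is uncertain since 79.66% of its exons lie in AC116366.3 on the same strand, which had 0 counts in every library.

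The 8 Fanconi members, FANCA, FANCB, FANCE, FANCG and FANCL of the core complex, the translocase FANCM and the pair FANCD2 and FANCI that the complex ubiquitinates, had a median of -0.0227. None passed the test with edgeR, DESeq2 or limma-voom, and 2 were lower at an unadjusted p under 0.05 (9.78% of all tested genes). FANCI was nearly equal in both groups, at 117.5 ± 0.508 CPM with VNLG-152R and 118.7 ± 1.34 CPM in vehicle control (SD, n = 3 each). FANCD2 was at -0.05, FANCA at -0.03 and FANCM at -0.01, which places these members close to zero. FANCE had 40.1, 34.3 and 37.3 CPM with VNLG-152R against 45.1, 43.4 and 44.8 CPM in vehicle control, without overlap (log2 fold change -0.25, edgeR adjusted p = 0.102). FANCG was at -0.19, also without overlap, and FANCB at 0.14. FANCL, the ubiquitin ligase of the complex, had 10.8, 13.3 and 10.8 CPM with VNLG-152R against 12.7, 9.93 and 9.63 CPM in vehicle control, and the groups overlapped (0.12, adjusted p = 0.624 by edgeR).

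Levels of different genes were compared per kilobase of the longest coding transcript. PARP1 was the highest of the 36 with 74.1 CPM per kilobase with VNLG-152R and 77.5 in vehicle control. PRKDC had 38.8 with VNLG-152R and 28.8 in vehicle control, and CLSPN had 27.7 with VNLG-152R and 32.7 in vehicle control, so that PRKDC was above CLSPN with VNLG-152R and below it in vehicle control. FANCI had 24.8 with VNLG-152R and 25.0 in vehicle control. ATM, at 6.85 with VNLG-152R and 4.69 in vehicle control, was far below PRKDC on this scale, although both are giant kinases of one family. RAD50 was the lowest at 0.496 with VNLG-152R and 0.502 in vehicle control. Its place is uncertain, since 79.66% of its exons lie in AC116366.3 on the same strand, which had 0 counts in every library.

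The members were next compared by transcript length, taken as the longest coding transcript in GENCODE 29. They ranged from 1698 bases (FANCL) to 13509 (PRKDC), and 18 were longer and 18 shorter than the median of 4756. The longer members had a median log2 fold change of -0.0262, with 7 positive and 11 negative values, and the shorter members one of -0.169, with 4 positive and 14 negative. ATM and PRKDC, 2 of the 18 longer members, rose, where 8.28% of all tested protein-coding genes longer than 4756 bases rose, and none of the longer members fell, where 0.715% did so. Of the shorter members none rose, where 2.92% of the coding genes up to that length rose, and ATRIP fell, where 2.21% fell. The median over all coding genes was 0.0868 in the longer and -0.0464 in the shorter class, and the members' medians were the lower ones in both classes. The difference between longer and shorter members was 0.143.

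The 4 members of at least 10000 bases, PRKDC, ATM, BRCA2 and TP53BP1, all had positive fold changes and VNLG-152R libraries wholly above the controls, with a median of 0.348. Among the 562 tested coding genes of that length, 22.4% rose, 439 had positive fold changes, 281 had VNLG-152R libraries wholly above the controls, and the median was 0.222. The 13 members under 4000 bases had a median of -0.191, and 5 of them lay wholly below the controls, where 19% of the 7596 tested coding genes under 4000 bases did so and their median was -0.0582. The positive values in that class were those of CHEK2 (0.26), FANCB (0.14) and FANCL (0.12). RAD51D counts among the long members with a 9988-base transcript, of which only 1044 bases are coding. Across the 36 members Spearman's rho between length and log2 fold change was 0.474, and 0.264 without the 4 longest, and across 12908 coding genes it was 0.307, or 0.428 across the 9059 of them with at least 10 CPM. Genes in 1 set of libraries are not independent replicates, so these are descriptions.

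**Figure D3:**
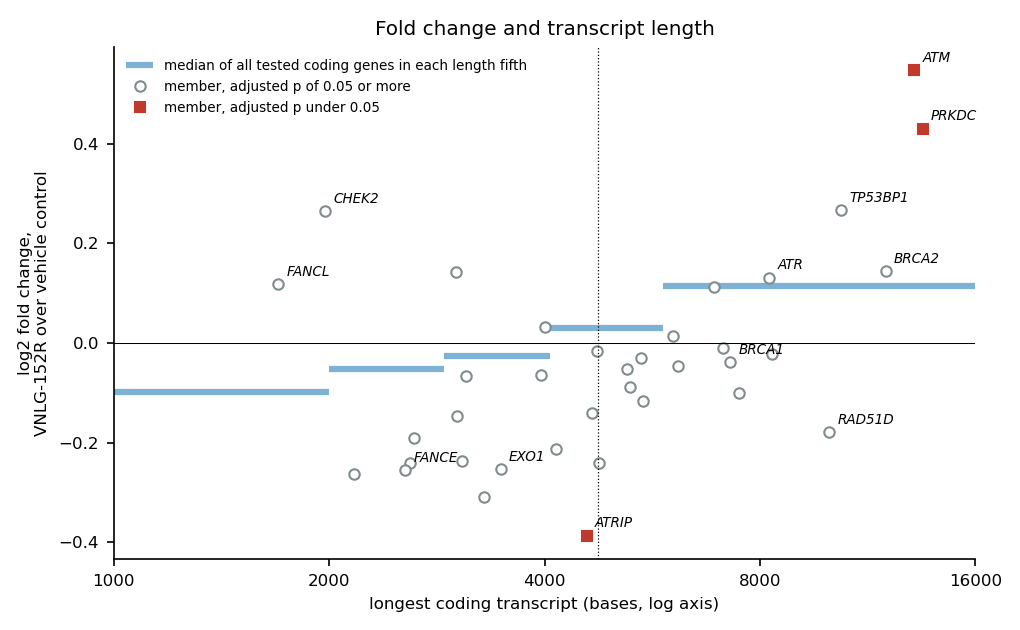
Log2 fold change (y axis, VNLG-152R over vehicle control) against the length of the longest coding transcript (x axis, bases, log scale) for the 36 members, with bars at the median of all tested coding genes in each of 5 length classes of nearly equal size, a dotted line at 4756 bases and squares for members with an adjusted p under 0.05. The 4 members beyond 10000 bases lie above zero, and most of those under 4000 bases lie below it.

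Length moved with treatment across the whole libraries. The difference in log2 CPM between genes of 10000 and of 2000 bases, relative to the vehicle control mean, was 0.237, 0.223 and 0.239 in the 3 VNLG-152R libraries, against -0.0687, 0.0947 and -0.0286 in the vehicle controls. The difference between the medians of longer and shorter members was 0.129, 0.127 and 0.128 in the VNLG-152R libraries, against 0.0107, 0.0346 and -0.0293 in the controls. Thus every VNLG-152R library was shifted towards long transcripts, by nearly equal amounts. The part of this shift in the results of ATM and PRKDC was not tested apart from the correction that follows.

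**Figure D4:**
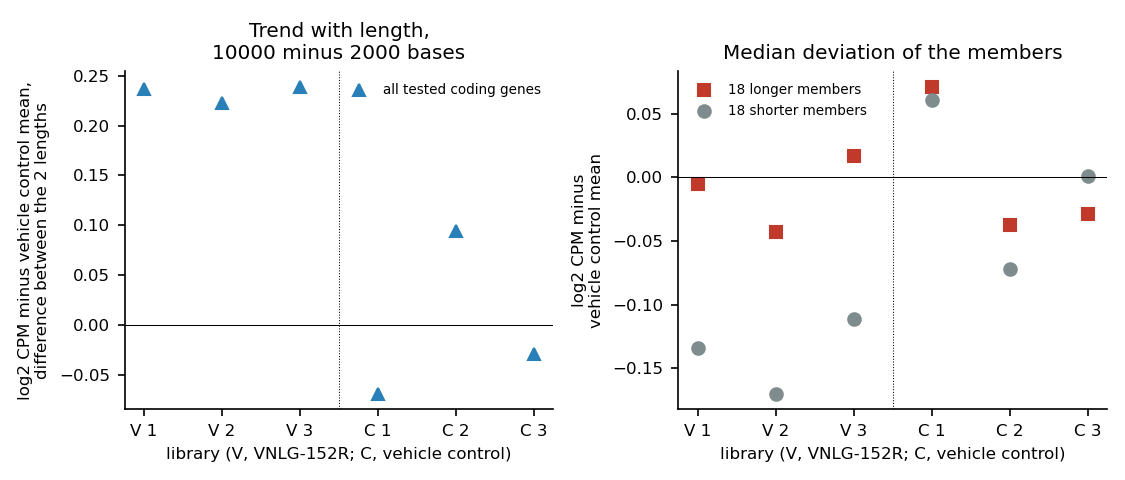
Length shift in each of the 6 libraries (y axes, log2 CPM relative to the vehicle control mean), with VNLG-152R left of vehicle control, for all tested coding genes (left panel, the level at 10000 minus that at 2000 bases) and for the medians of the 18 longer and 18 shorter members. The VNLG-152R libraries lie at 0.223 to 0.239 in the left panel, above all controls.

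When the smooth trend of each library with length was removed before the same edgeR test, on the 16731 genes with a length, the member median was -0.122 and the difference between longer and shorter members 0.0614. With edgeR no member rose and 1 fell, where 2.77% of the 16731 genes rose and 1.34% fell. At an unadjusted p under 0.05, 3 members were higher and 10 lower, where 11.5% of these genes were higher and 9.62% lower. ATM and PRKDC kept positive fold changes of 0.33 and 0.21, TP53BP1 had 0.09 and BRCA2 had -0.06. ATRIP was at -0.42 (edgeR adjusted p = 0.026) and RAD51D at -0.35 (adjusted p = 0.063 by edgeR). The RAD51D value rests on its 9988-base transcript, of which only 1044 bases are coding. The correction takes away any change that is shared by genes of 1 length, whatever its source, so it cannot be told from these values which scale is the right one.

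**Figure D5:**
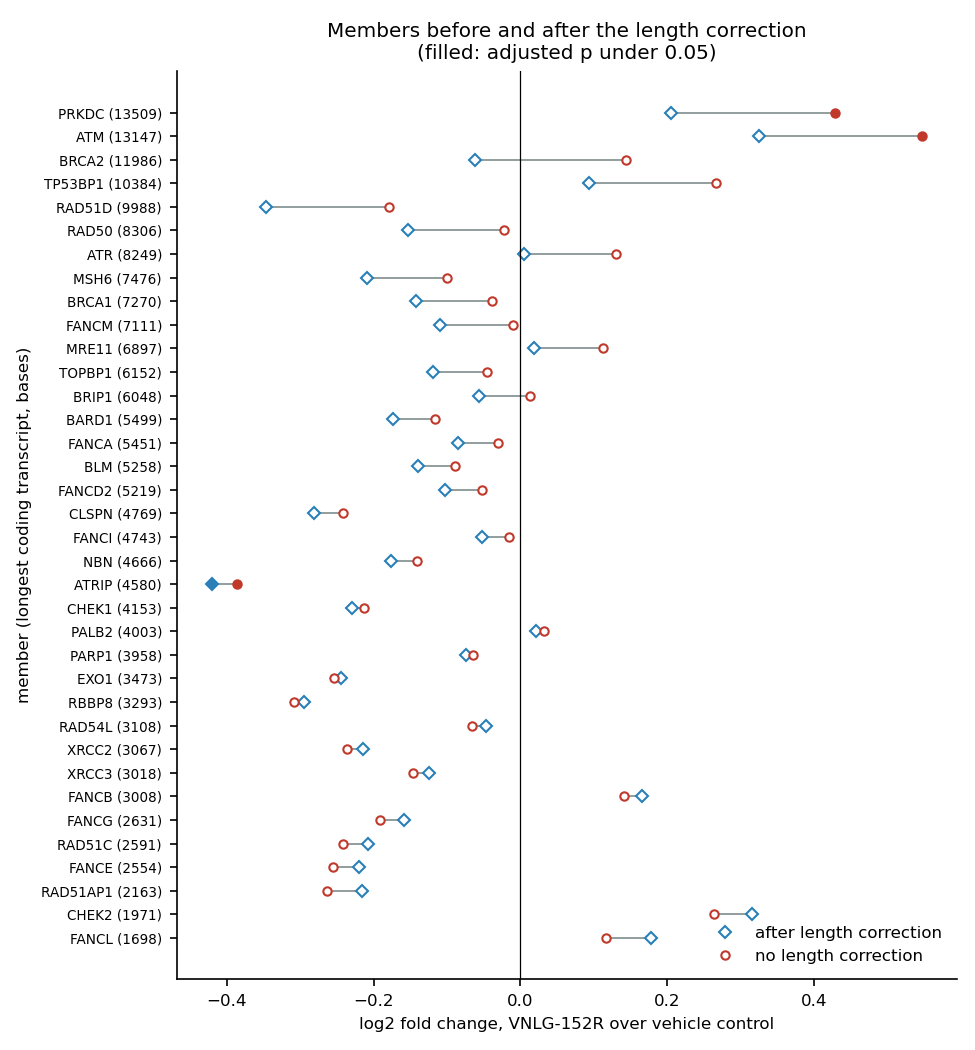
Log2 fold change of VNLG-152R over vehicle control (x axis) of the 36 members, ordered by the length of the longest coding transcript (y axis, longest at the top), with the length correction (diamonds) and without it (circles), filled where the adjusted p was under 0.05. With the correction ATM lies at 0.33 and without it at 0.55, PRKDC at 0.21 and 0.43, and ATRIP at -0.42 and -0.39, and the shift is largest in the longest members.

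Of 35 other homologous recombination genes, none rose and 1 fell, H2AX, the histone phosphorylated around breaks, which had 157, 119 and 141 CPM with VNLG-152R against 199, 172 and 198 CPM in vehicle control (log2 fold change -0.45, edgeR adjusted p = 0.0294). The groups of H2AX did not overlap. Of 15 other Fanconi genes 1 fell, CENPS, with at most 0.288 CPM with VNLG-152R and at least 0.399 CPM in vehicle control. CENPS shares 64.75% of its exons with CENPS-CORT, so its few counts are uncertain. Of 17 other checkpoint genes 2 fell, the ATR pathway factor TIPIN and the cell cycle phosphatase CDC25A, both at -0.45 (edgeR adjusted p = 0.0213 and 0.0137). DESeq2 called 4 of these 17 lower and none higher, and 1 lower in each of the homologous recombination and Fanconi lists. Among all 17084 tested genes, edgeR called 3.9% higher and 1.49% lower, and DESeq2 called 964 higher and 537 lower. At an unadjusted p under 0.05, 6 of the 17 checkpoint genes were lower and none higher, 5 of the 15 Fanconi genes were lower and none higher, and 5 of the 35 recombination genes were lower and 2 higher. Of all tested genes, 9.78% were lower and 12.7% higher at that level. None of 9 end-joining genes and none of 17 mismatch and base excision repair genes passed the test with edgeR, DESeq2 or limma-voom, with 0 and 3 of them lower at an unadjusted p under 0.05. With the length correction, H2AX and CENPS were called no longer, and 2 checkpoint genes were called lower, where 1.34% of all genes in that fit were. The medians of the 5 lists, in the order named, were -0.0876, -0.181, -0.13, -0.0869 and -0.00385.

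Genes of the cell cycle were measured beside the members. All 17 genes of an S phase list had negative fold changes, with a median of -0.284. The VNLG-152R libraries lay wholly below the controls in 13 (76.5%), where 13.4% of all tested genes did so. Among tested coding genes under 4000 bases 19% did so. This list was chosen with earlier results of these data known, so its shares are descriptions. With edgeR 5 fell (29.4%), where 1.49% of all tested genes and 184 of the 7596 tested coding genes under 4000 bases fell. The 5 were CCNE2 (-0.54), GINS2 (-0.44), CDT1 (-0.43), RRM2 (-0.37) and TYMS (-0.31). These encode a G1/S cyclin, replication factors and enzymes of nucleotide supply. In bulk RNA, fewer cells in S phase and less of these RNAs per cell cannot be told apart. DESeq2 called 10 of the 17 lower, where it called 537 of all 17084 tested genes lower. The length correction left 2, where 1.34% of the genes in that fit fell. Of 14 genes of G2 and mitosis, 11 had negative fold changes with a list median of -0.149, and none passed the test with edgeR. At an unadjusted p under 0.05, 2 were higher and 6 lower, where 12.7% of all tested genes were higher and 9.78% lower. DESeq2 called 1 higher and 2 lower. The part of the cell cycle genes in the negative values of the members was not tested.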

How the data were processed

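PolyA-enriched, strand-specific libraries of 6 samples were sequenced in paired-end mode by the authors, who deposited raw read counts per Ensembl gene (unit counts, not normalized). The submitters' processing notes name HISAT, HTSeq, DESeq and the build GRCh38. For the annotation release, the strand setting and the versions, the sources used here give nothing. Rows that name no gene were left out of library sizes: no feature (2.63% to 5.05% of pairs), ambiguous (4.81% to 5.16%) and not unique (7.81% to 8.12%).

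Counts were fitted with edgeR 4.0.16 in R 4.3.3 (TMM, filterByExpr, robust quasi-likelihood test, 3 against 3 libraries, residual degrees of freedom 4, biological coefficient of variation 0.105), with Benjamini-Hochberg adjustment over 17084 genes. CPM values are TMM-normalized. A prior count of 2 was used only for the log2 CPM values of single libraries and the length trends, and fold changes come from the edgeR fit with its default. Fitted on simulated data of 16874 genes, the test recovered 89.87% of 79 genes changed 1.5-fold, and 11 of its 203 calls were false. The simulation gave all genes the same dispersion, had no length trend and changed only genes with higher counts. Its rate therefore need not hold for the real data. An exact permutation test of 3 against 3 cannot go below 0.1, so none is given. No replicate pair agreed within sampling noise (chi-square per degree of freedom at least 17.9).

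Lengths, coordinates and overlaps come from GENCODE 29 on GRCh38 and promoter sequences from RefSeq. The length correction used a lowess trend (span 0.3) per library as an offset. Values in every library are given for members past the threshold, the 4 largest others, the 4 longest and 4 shortest transcripts, and BRCA1, BRCA2, ATM, ATR, CHEK1 and PARP1, and CLSPN, EXO1, RAD51C and FANCI are named with means for illustration after their values were seen. The members and lists were chosen with earlier results of these data known. Alternatives were RLE factors, library size only, other filters, DESeq2 1.42.0, limma-voom with limma 3.58.1, thinning to the shallowest library, a replicate block, other thresholds, other lengths and leaving out each library. No robust estimation and the class of at least 10000 bases were added after seeing the data. The class under 4000 bases, the split by promoter word and the counts at an unadjusted p under 0.05 were not planned beforehand either.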

Additional observations from a re-analysis of the deposited data

Results flagged for a closer look

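Read pairs in no annotated gene, a class outside the comparisons, made up 3.52%, 5.05% and 3.36% in VNLG-152R replicates 1, 2 and 3, each above all vehicle controls, which had 3.17%, 2.63% and 3.05%. Replicate 2 of VNLG-152R, with the highest share, also had the highest ATM level of the 6 libraries at 101 CPM. Without it the log2 fold change of ATM was 0.46 (edgeR adjusted p = 0.0112), and the part of these reads in the member results was not tested.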

How the results depend on the processing

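RLE size factors, library size only, a mean of at least 1 CPM, limma-voom, thinning and no robust estimation (chosen after seeing the data) left ATM and PRKDC as the members that rose and ATRIP as the one that fell, and DESeq2 gave the same 2 and 1. The count of changed genes, 922, was 1499 with no expression filter, 1501 with DESeq2, 689 with the length correction (464 higher, 225 lower), 1764 at an adjusted p under 0.1 and 281 under 0.01, and 288 to 1000 when 1 library was left out. Members that rose numbered 3 under 0.1 (TP53BP1 joined at an adjusted p of 0.0914), 1 under 0.01 and 0 with the length correction, and 1 to 2 without 1 library. Members that fell numbered 2 with no filter (RBBP8 joined at an adjusted p of 0.0446), 2 under 0.1, 0 under 0.01, and 0 to 2 without 1 library, where FANCE joined without VNLG-152R replicate 1. The member median ran from -0.0911 to -0.0329 without 1 library and was -0.122 with the length correction, and the difference between longer and shorter members ran from 0.12 to 0.185 and was 0.0614 with the length correction, 0.183 with union exon length and 0.166 with coding length. The sign turned for BRCA2 (-0.0623) and BRIP1 (-0.0566) with the length correction and for RAD50 (0.00518) with thinning. Without 1 library it turned in at least 1 fit for 7 members, whose log2 fold changes ran from -0.0856 to 0.00915 for BRCA1, -0.108 to 0.00293 for FANCD2, -0.0474 to 0.0412 for FANCM, -0.0323 to 0.0968 for PALB2, -0.0193 to 0.0489 for BRIP1, -0.228 to 0.0751 for RAD50 and -0.0885 to 0.0338 for FANCA. The cause of these changes was not tested.

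Replicate numbers did not pair the libraries: deviations of same-numbered libraries correlated at -0.192, -0.173 and -0.114, and no library correlated best with its own number. With the replicate block, 463 genes changed, ATM (0.54, edgeR adjusted p = 0.00851) was the 1 member that rose and 0 fell, with PRKDC at 0.0699 and ATRIP at 0.102. With the replicate block and the length correction together, 282 genes changed, 0 members rose and 0 fell, the median was -0.122, the difference between longer and shorter members was 0.0649, and BRCA2 and BRIP1 turned to -0.0586 and -0.0554. RAD50, with 4.12 CPM with VNLG-152R and 4.17 CPM in vehicle control, had the fewest counts of the members, so its value is the least precise.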

Other observations

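CAV1, the caveolin gene that marks the mesenchymal state of the line, fell by 0.60 on the log2 scale with VNLG-152R (edgeR adjusted p = 0.00383), and VIM was at -0.39 (edgeR adjusted p = 0.0604). MDC1, the scaffold that binds phosphorylated H2AX, had 4.35, 1.90 and 2.44 CPM with VNLG-152R against 0.773, 1.78 and 2.25 CPM in vehicle control, an uneven and low level for a gene of 7576 bases. UBE2T, the ubiquitin-conjugating enzyme of the Fanconi pathway, had 40.4, 68.7 and 58.9 CPM with VNLG-152R against 59.4, 58.3 and 60.1 CPM in vehicle control, so its spread lay within the VNLG-152R libraries. MKI67, a proliferation marker with a 12678-base transcript, was at 0.26 while the S phase list was negative throughout (edgeR adjusted p = 0.19 for MKI67), and its groups overlapped.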
